A study of Mus musculus with 3 samples.

Results

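CD8 T cells were the 159 cells, of 12668 in all, that the depositors' cell type column names so, 147 in the library labelled LGG, 12 in the library labelled HGG and 0 in the library with no tumor. The table gives names, depth and scores per cell, so the name could not be checked against Cd8a, which encodes the alpha chain of the co-receptor, or Cd3e, a signalling chain of the T cell receptor complex. CD8 T cells recognise peptides on MHC class I molecules and kill target cells with perforin and granzymes. In the healthy brain they are sparse and lie mostly at the borders and in the vessels, and in tumors they are the main T cells that kill tumor cells. After contact with antigen they divide, and effector and memory forms are told apart by homing receptors and effector genes.

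The libraries were single-cell RNA profiles of mouse immune cells selected for CD45, the pan-leukocyte surface marker, with a positive selection kit. The tissue was a tumor from the right hemisphere of the brain, where cells had been injected, or a matching piece of normal tissue. The 3 groups were animals without tumor, labelled 0 to 2 weeks, animals with low grade glioma (LGG), labelled 3 to 4 weeks, and animals with HGG, labelled 6 to 8 weeks. For the library labelled HGG, the title reads no tumor, but the library name and the description give HGG. All groups shared the digestion and the selection, and the labels give no strain, genotype, tumor cell line or number of animals per library. Whether the labelled weeks count from birth or from the injection is not said. Tumor group, labelled weeks and library cannot be told apart. No difference between libraries has a replicate check, and intervals cover counting error only. The libraries held 3544, 5024 and 4100 cells in this order, with 32685080, 61554429 and 61872213 UMIs (distinct RNA molecules). The same barcode occurred in more than 1 library for 30 cells, of which 1 was a CD8 T cell.

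The abundance of CD8 T cells was compared between both tumor libraries and the brain without tumor. The class made up 2.93% of the LGG cells (2.48 to 3.43%, exact 95% interval from here on) and 0.293% of the HGG cells (0.151 to 0.511%). No cell of 3544 without tumor had the name, for which the limit of 3 counts is 0.0847% (exact upper bound 0.104%). The ratio of HGG to LGG was 0.10 (0.0556 to 0.180), so the class met the rule for a lower share, a ratio at or beyond 1.5-fold with exact intervals apart. The background of this rule was high, since 6 of 14 classes (42.9%) were called lower in HGG. Among them were T cells without a finer name (ratio 0.328) and B cells (0.376). Immature erythrocytes were called too, at 0.0588, a lower ratio than that of CD8 T cells. CD4 T cells (0.426) and NK cells (0.513) also had ratios below 1 but were not called. In LGG against no tumor 9 of 14 classes (64.3%) were called higher, CD8 T cells among them at 34.6-fold the limit of 3 counts. In HGG against no tumor 6 of 14 (42.9%) were called higher, CD8 T cells among them at 3.46-fold that limit. Both folds take the tumor share as counted and are not lower bounds. T cells without a finer name were called higher in both comparisons too. The HGG call of CD8 T cells against no tumor ended on singlets of the class that all other labels name T or NK cells. These were 0.0843 to 0.384% of all HGG cells, against 0 to 0.104% without tumor. The same call ended on cells with a CD8 name in both of 2 other labels, with 0.117 to 0.448% against 0.00684 to 0.204%.

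The ratio of HGG to LGG lay nearer to 1 with other T cells as the denominator. Among the 3 T cell classes (CD8, CD4 and T cells without a finer name), CD8 T cells were 29.9% in LGG (25.9 to 34.2%, 147 of 491) and 11.3% in HGG (5.99 to 18.9%, 12 of 106). The ratio was 0.378 (0.218 to 0.655). Within all lymphoid cells, B and NK cells included, the ratio was 0.333 (0.190 to 0.584), from 22.7% and 7.55%. Without tumor, 0 of 29 cells of the T cell classes were named CD8, for which the limit of 3 counts is 10.3% (exact upper bound 11.9%). That limit is close to the HGG share, and the exact intervals of HGG and no tumor overlapped, so a difference in CD8 share between these libraries was not detectable among so few T cells. The LGG share as counted was 2.89-fold the limit of 3 counts. The lower HGG share among T cell classes met the rule at all depths. It did not among cells of a depth that all libraries shared (the common range, 2985.2 to 14346.3 UMIs), where 39.4% (33.0 to 46.1%) and 19.1% (9.15 to 33.3%) had intervals that met. Nor did it with the cells that carry a CD8 name in both of 2 other labels described further on, at 19.3% (15.96 to 23.1%) in LGG and 9.35% (4.57 to 16.5%) in HGG.

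**Figure D1:**
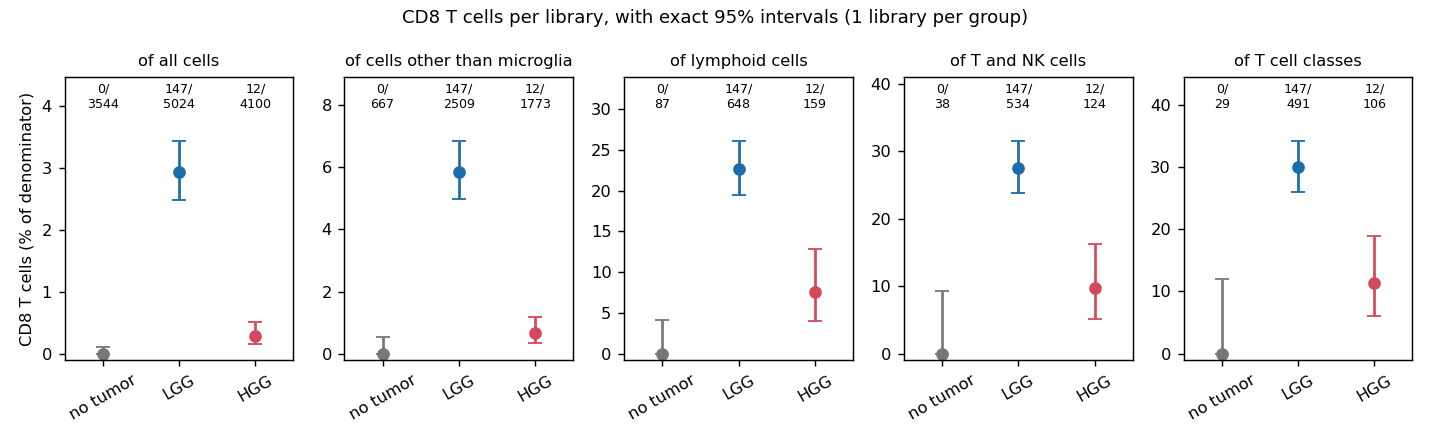
Share of CD8 T cells (y axis, percent) in each library (x axis) for 5 denominators; points are shares, bars exact 95% intervals, and the numbers give CD8 T cells over all cells of the denominator. LGG lies highest in each panel, and among T cell classes the interval of the no-tumor library (0 of 29) overlaps that of HGG (12 of 106).

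The deposited clusters held CD8 T cells together with other lymphocytes. At the 7 lowest resolutions of 22, from 0.1 to 0.7, all 159 lay in 1 cluster. At resolution 0.4 that cluster had 702 cells, with 413 T cells without a finer name, 70 NK cells and all 31 CD4 T cells beside the 159. From resolution 0.8 to 1.4, 158 of 159 stayed in 1 cluster. At 1.5 the class was spread over 3 clusters, of which the largest held 132 (83.0%). At the finest resolution, 5, it was spread over 5 of 53 clusters. The cluster with most of the class held cells of other names at all 22 resolutions, and CD8 T cells were at most 69.3% of it, at resolution 4.

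Cluster 36 of the finest clustering, the largest for this class, held 97 of the 159 CD8 T cells, 88 in LGG (59.9% of the LGG class) and 9 of the 12 in HGG. In the same cluster lay 42 T cells without a finer name and 3 NK cells. Of its cells, 73.9% were named CD8 in LGG (65.1 to 81.6%, 88 of 119) and 42.9% in HGG (21.8 to 66.0%, 9 of 21), with overlapping intervals. Its 2 no-tumor cells were both named T cells, and both had a CD8 name in the merged label, another deposited annotation described further on. The unnamed T cells of this cluster were deeper than the CD8 T cells in LGG, with a median of 18532 UMIs in 31 cells against 9299 in 88. Doublet calls stood at 7 of 31 and 6 of 88.

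The other clusters held smaller parts of the class. Cluster 30 had 36 LGG and 2 HGG CD8 T cells and was also the cluster of all 31 CD4 T cells. Of its CD8 T cells in LGG, 22 of 36 (61.1%) had a CD8 name in the merged label, against 81 of 88 (92.0%) in cluster 36. Cluster 46, where most NK cells lay in HGG (14) and LGG (28), had 11 LGG and 1 HGG CD8 T cells, each with a CD8 name in the merged label. Cluster 20, mostly T cells without a finer name, had 11 CD8 T cells, all from LGG. They were the deepest large group of the class, with a median of 49725 UMIs, and 8 of 11 (72.7%) were called doublets. The last CD8 T cell lay in cluster 47, where the other 49 LGG cells and all 11 HGG cells were of neither a T nor an NK class. It was called a doublet and had 77843 UMIs. Counting every cell of cluster 36 in place of the class gave 2 no-tumor, 119 LGG and 21 HGG cells and a ratio of HGG to LGG of 0.216 (0.136 to 0.343) over all cells. Over T cell classes that ratio became 0.795 (0.525 to 1.204) and over lymphoid cells 0.719, each too near 1 for a call. This count was chosen after the values were seen.

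**Figure D2:**
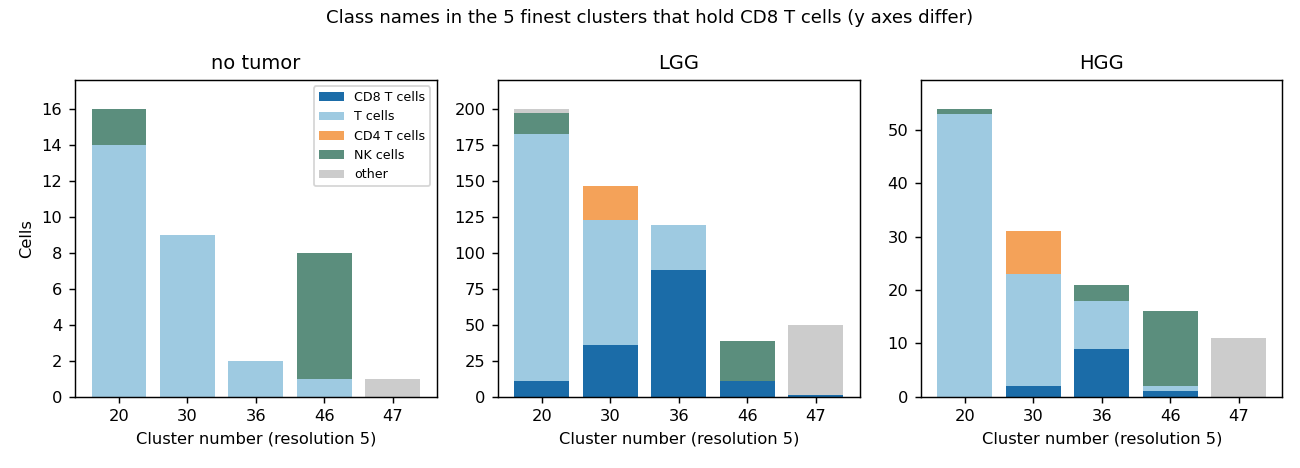
Cells (y axis) of each class name in the 5 clusters at resolution 5 that hold CD8 T cells (x axis, cluster number), by library; the y axes differ. CD8 T cells share every cluster with another class, and cluster 36 holds 88 of them in LGG and 9 in HGG.

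The median depth per CD8 T cell was close to that of the whole library in LGG and below it in HGG, where 12 cells did not resolve the difference. In LGG the class had from 1147 to 83385 UMIs with a median of 10575 (8781 to 11850), against 9863.5 over all LGG cells. In HGG it had from 4881 to 23407 UMIs with a median of 8032 (5713 to 14592), against 12907.5 over all HGG cells. The intervals of both medians overlapped, and that of the HGG class included the median over all HGG cells. Of the 147 LGG cells, 106 lay within the HGG range, 11 below and 30 above it. Genes detected had a median of 2563 in LGG (522 to 7987) and 2315 in HGG (1925 to 5012), where the range is given in brackets. Mitochondrial genes took a median of 3.52% of UMIs in LGG, with a highest value of 9.53%, and 3.17% in HGG, with a highest value of 4.54%. Above 5% lay 15 of the 147 LGG cells and 0 of the 12 HGG cells. T cells without a finer name were deeper, with medians of 17984 UMIs in LGG and 18743 in HGG. CD4 T cells had medians of 9912 UMIs in LGG and 5990.5 in HGG, NK cells 8822 and 6023, and B cells 17438.5 and 8524. In HGG the medians of CD4 T, NK and B cells thus also lay below that of the whole library.

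Doublet calls, barcodes that a caller judged to hold 2 cells, fell on the deepest CD8 T cells. In LGG 17 of 147 were called (11.6%, 6.88 to 17.9%), 11 with high and 6 with low confidence. In HGG 2 of 12 were called (16.7%, 2.09 to 48.4%), both with high confidence. The called LGG cells had from 25206 to 83385 UMIs and a median of 49725, whereas the 130 singlets had from 1147 to 51827 and a median of 9196.5. Of 28 LGG cells at or above 25206 UMIs, 17 were called. Both called HGG cells, with 17294 and 23407 UMIs, were the deepest of the 12. The common range of depth ended at 14346.3 UMIs, below the shallowest called CD8 T cell of both libraries. None of its 89 LGG and 9 HGG CD8 T cells could thus be among the called ones (exact upper bounds 4.06% and 33.6%). This count therefore adds nothing to the depths of the called cells. Among T cells without a finer name 19.9% were called in LGG (15.7 to 24.7%) and 24.4% in HGG (15.8 to 34.9%). In LGG, CD4 T cells were at 8.70% (1.07 to 28.0%), NK cells at 6.98% (1.46 to 19.1%) and B cells at 15.8% (9.63 to 23.8%). The intervals of all these lymphoid classes in LGG overlapped that of CD8 T cells. Over all cells of the series 3.47% were called.

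**Figure D3:**
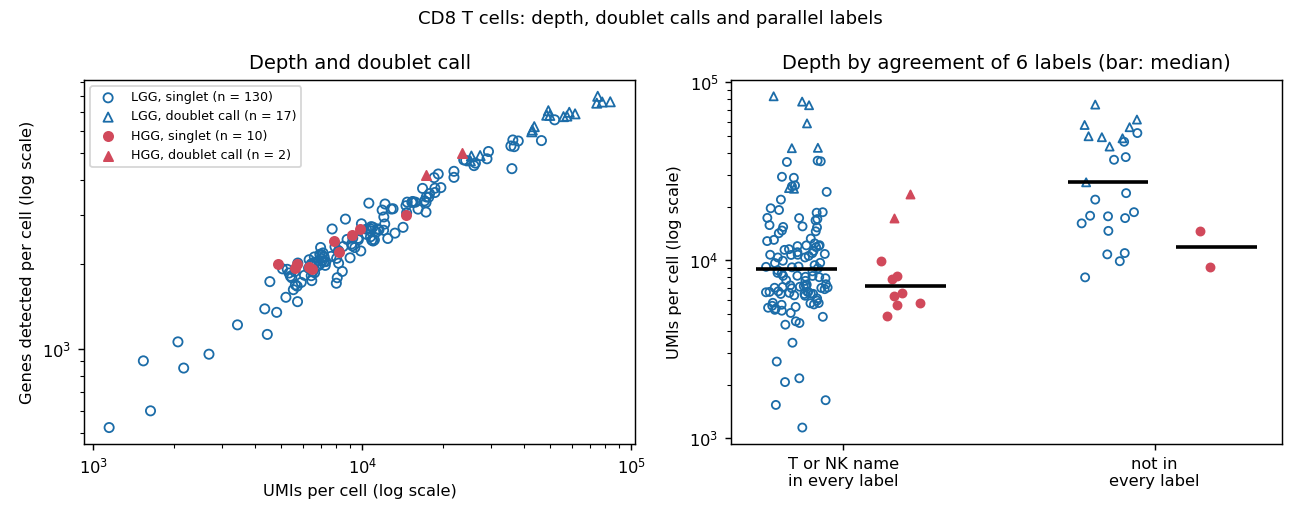
Left, genes detected against UMIs per CD8 T cell, both on log scales, by library (blue open, LGG; red filled, HGG) and doublet call (triangles). Right, UMIs per cell on a log scale for the cells that all 6 parallel labels call T or NK cells and for the others, with bars at the medians; the 19 cells with a doublet call lie at the deep end, from 17294 UMIs.

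Most CD8 T cells had an S or G2M phase call in both tumor libraries. Of the LGG class 123 of 147 (83.7%, 76.7 to 89.3%) had an S or G2M phase, 70 S and 53 G2M. In HGG it was 10 of 12 (83.3%, 51.6 to 97.9%), 4 S and 6 G2M. All other cells stood at 43.0% in LGG (41.6 to 44.4%) and 37.3% in HGG (35.8 to 38.8%). The LGG share was also above that of T cells without a finer name, at 58.6% (53.0 to 64.0%), and of B cells, at 64.0% (54.5 to 72.8%). CD4 T cells (86.96%, 66.4 to 97.2%) and NK cells (76.7%, 61.4 to 88.2%) had intervals that overlapped with that of CD8 T cells. At common depth, the LGG share of CD8 T cells was 83.1% (73.7 to 90.2%) and that of T cells without a finer name 66.7% (57.5 to 75.01%), with intervals that overlapped. B cells of that depth were at 70.2% (55.1 to 82.7%), which overlapped too, whereas all other LGG cells were at 41.0% (39.3 to 42.8%). In HGG at common depth, CD8 T cells were at 77.8% (39.99 to 97.2%, 7 of 9) and all other cells at 38.3% (35.9 to 40.7%), and these intervals met. HGG T cells without a finer name of that depth were at 77.4% (58.9 to 90.4%). NK cells were at 76.5%, CD4 T cells at 85.7% and B cells at 81.8%, so the CD8 share lay within the range of these classes. At all depths the HGG interval of CD8 T cells overlapped that of the HGG T cells without a finer name, at 55.8% (44.7 to 66.5%). Microglia, the resident macrophages of the brain, were at 36.6% in LGG.

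The phase of a cell follows from the sign of its scores and from which is higher. In all 12668 cells G1 was given exactly where both scores lay below 0, and a small positive score therefore gives an S or G2M phase. In all 4879 cells not in G1, the higher score set whether the phase was S or G2M. The S score of CD8 T cells had a median of 0.0160 in LGG (from -0.0740 to 0.507) and 0.00861 in HGG (from -0.0683 to 0.109). The G2M score had a median of 0.0172 in LGG (from -0.0653 to 0.331) and 0.0167 in HGG (from -0.0434 to 0.0532). Most CD8 T cells thus had scores near 0, and a minority in LGG stood well above. A score above 0.1 was found in 22 of 147 LGG cells (14.97%, 9.62 to 21.8%) and in 1 of 12 in HGG (8.33%, 0.211 to 38.5%). Both scores were above 0.1 in 8 LGG cells and 0 HGG cells. All other LGG cells had such a score in 5.41% (4.79 to 6.09%), an interval below that of the LGG CD8 T cells. T cells without a finer name had one in 8.72% (5.87 to 12.4%), with an interval that overlapped that of the CD8 T cells. In the Int Mo/Mac class, whose name the labels leave unexplained, the share was 31.6% (27.5 to 36.0%), above the interval of the CD8 T cells.

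The CD8 T cells with a score above 0.1 were deeper in LGG than the rest, with medians of 16886.5 and 10359 UMIs, and 6 of 22 were called doublets against 11 of 125. In the common range of depth the share was 7.87% in LGG (3.22 to 15.5%, 7 of 89), against 14.97% at all depths. All other LGG cells of that depth stood at 2.31% (1.81 to 2.91%), and the Int Mo/Mac class at 21.0% (14.6 to 28.6%), with an interval that overlapped that of the CD8 T cells. T cells without a finer name stood at 9.17% (4.67 to 15.8%), above the CD8 share. B cells stood at 6.38% (1.34 to 17.5%), CD4 T cells at 5.88% (0.149 to 28.7%) and NK cells at 0% (0 to 10.3%). The intervals of these lymphoid classes overlapped that of the CD8 T cells too. The part of depth, doublets and free RNA in these scores and phase calls was not tested. The highest S score, 0.507, belonged to a singlet of cluster 36 with 16743 UMIs. The highest G2M score, 0.331, belonged to the deepest cell, with 83385 UMIs, a doublet call and a place in cluster 20.

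**Figure D4:**
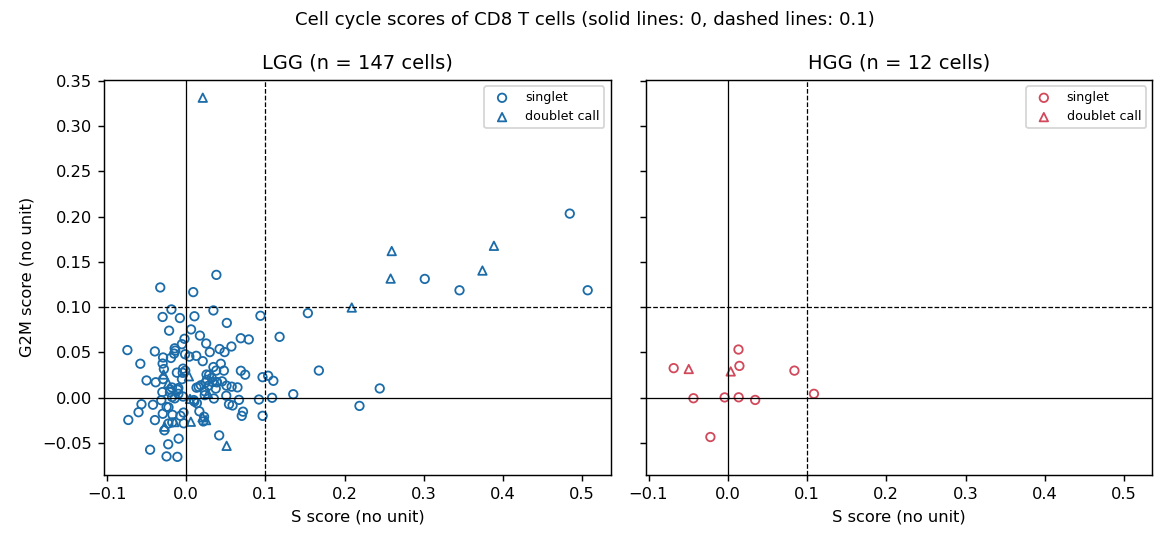
G2M score (y axis) against S score (x axis), both without unit, for each CD8 T cell of LGG (left, 147 cells) and HGG (right, 12 cells); triangles are doublet calls, solid lines mark 0 and dashed lines 0.1. Most cells lie near 0, and 22 LGG cells and 1 HGG cell have a score above 0.1.

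Other deposited annotations mostly named these cells T or NK cells. The label headed final and all 4 versions of a marker-list label (SCSA), whose name is cytotoxic T cells, mark exactly the same 159 cells and are therefore the same call. Of 6 further labels, the scANVI label gave a T or NK name to 142 of 147 LGG cells (96.6%) and 12 of 12 HGG cells. The second SingleR label gave a T or NK name to 142 of 147 and 12 of 12, the second VHove label to 145 of 147 and 12 of 12, and the first VHove label to 138 of 147 and 10 of 12. The first SingleR label was the lowest, with 125 of 147 (85.0%, 78.2 to 90.4%) and 10 of 12. Its most frequent name was NKT, T cells that share receptors with NK cells, for 94 LGG and 7 HGG cells. It gave another T cell name to only 15 LGG cells (10.2%) and 3 HGG cells, and named 14 LGG cells innate lymphoid cells. It called 18 LGG cells and 1 HGG cell microglia. All 6 labels gave a T or NK name to 122 LGG cells (83.0%, 75.9 to 88.7%) and 10 of 12 HGG cells (83.3%).

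The label called merged here, which names T cell lineages, called 124 of 147 LGG cells (84.4%, 77.5 to 89.8%) and 11 of 12 HGG cells CD8. It called 12 LGG cells CD4 and 2 regulatory T cells. Its finer form divides CD8 names into central memory, cells that recirculate through lymph nodes, and effector memory, cells that patrol peripheral tissues. In LGG 66 cells were central and 58 effector memory, and in HGG 9 and 2. The effector memory part of these was 46.8% in LGG (37.8 to 55.9%) and 18.2% in HGG (2.28 to 51.8%), with overlapping intervals. The fine SingleR label named the subset as CD8 T cells in 75 LGG cells (51.0%, 42.7 to 59.3%) and 7 HGG cells (58.3%), and gave reference names of effector cells to 29 and 3 and of memory cells to 46 and 4. A CD8 name from both the merged and the fine SingleR label was carried by 74 LGG and 7 HGG cells of the class, which is 50.9% of the 159.

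**Figure D5:**
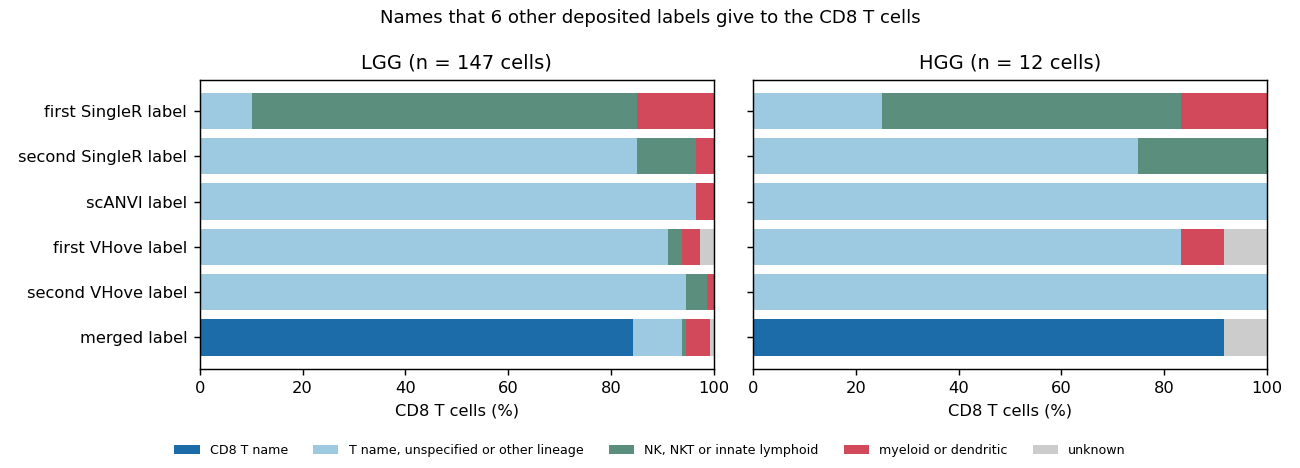
Names given to the CD8 T cells by 6 other deposited labels (rows), as percent of the class (x axis) in LGG (left) and HGG (right). Only the merged label has a CD8 name, given to 124 of 147 LGG cells and 11 of 12 HGG cells, and the first SingleR label has the most myeloid names (22 and 2 cells).

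CD8 names outside the class were also found. Over all cells, the merged label named 9 no-tumor, 265 LGG and 32 HGG cells CD8, of which 135 were of the class, 90 were T cells without a finer name and 40 were NK cells. With the CD8 name asked from both labels, 2 no-tumor, 97 LGG and 10 HGG cells remained, 81 of them in the class. Both no-tumor cells were of the class named T cells. The share over all cells by both names came to 1.93% for LGG (1.57 to 2.35%) and to 0.244% for HGG (0.117 to 0.448%), a ratio of 0.126 (0.0660 to 0.242), while no tumor had 0.0564% (0.00684 to 0.204%).

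Myeloid names within the class lay on deeper cells by the median, though not on the deepest ones in particular. The first SingleR label gave a myeloid or dendritic name to 22 LGG cells (14.97%) and 2 HGG cells, with medians of 32033 and 11866 UMIs. The LGG cells with a T or NK name in the same label had a median of 9123 UMIs and the HGG ones of 7191.5. The deepest cell of each library, with 83385 and 23407 UMIs, had a T or NK name. In LGG 9 of the 22 with a myeloid name (40.9%, 20.7 to 63.6%) were called doublets, against 8 of 125 (6.40%, 2.80 to 12.2%). The median depth of the called cells was 49725 UMIs in the 9 and 50771 in the 8. The other 13 of the 22 were singlets with a median of 17646 UMIs, above the median of 8490 in the 117 singlets with a T or NK name. Myeloid RNA in these droplets was not tested, since no value per gene was analysed here. Leaving out every doublet call and every cell that any of the 6 labels did not call T or NK kept 114 LGG cells (77.6%) and 8 HGG cells (66.7%). Of all cells of each library, left unfiltered, these were 2.27% in LGG and 0.195% in HGG, a ratio of 0.0860 (0.0420 to 0.176).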

How the data were processed

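The table analysed held 12668 cells of 3 droplet libraries (10x Genomics Chromium), 1 per group, and no value per gene. Per the labels' protocols, Cell Ranger 3.0.2 was used with mm10, and the submitters' processing notes list Seurat 4. The filters on cells were not given in the sources used here. Per the file headers, the values deposited are the count of UMIs and of genes per cell, the percent of mitochondrial UMIs, each S and G2M score, embedding coordinates, clusters at 22 resolutions, phases, doublet calls and cell names. Of 64 columns, 5 were not used.

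Members, lists and settings were chosen with earlier results of these data known. Shares have exact Clopper-Pearson intervals, ratios Katz log intervals and medians order-statistic intervals, at 95%. With 1 library per group there was no test and no p-value. Classes with at least 20 cells in any library entered the call rule. For a share of 0 the limit is 3 counts. T or NK names include regulatory and gamma delta T, NKT and innate lymphoid cells. The rule for named genes named none. Thinning of UMIs needs values per gene, so a shared range of depth was used, from the highest 10th to the lowest 90th percentile of the libraries. Alternatives covered depth, mitochondrial share, doublets, names, denominators and score limits. The interval code was tested on simulated data (Python 3.11.15, pandas 2.3.3, scipy 1.17.1).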

Additional observations from a re-analysis of the deposited data

How the results depend on the processing

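No paired analysis was possible because each group is 1 library, and for the same reason no replicate could be left out. Of 225 values under other settings, 180 stayed within the 95% interval of the reported value and 45 did not. The HGG to LGG ratio of CD8 T cell shares stayed below 1 in each setting. It ran from 0.0860 to 0.216 over all cells, from 0.286 to 0.719 over lymphoid cells and from 0.325 to 0.795 over T cell classes. With all of cluster 36 counted, its intervals over lymphoid cells (0.468 to 1.106) and T cell classes (0.525 to 1.204) included 1. The minimums of 1000 UMIs and 500 genes and the limit of 5% mitochondrial UMIs moved 0 of 31 values each. Both minimums lay below the lowest values of the class, 1147 UMIs and 522 genes, so values per CD8 T cell could not move. With the 5% limit 15 LGG and 0 HGG CD8 T cells were left out, so in HGG these values could not move either. Values that could not move are among the 180. The cause was not tested where values moved. The common range of depth put CD8 T cells at 0.548% of HGG cells (ratio 0.194), 29.0% of LGG lymphoid cells, and 39.4% and 19.1% of T cell classes in LGG and HGG. It put doublet calls at 0% in both libraries, as every called CD8 T cell lay above the range. The LGG medians became 7727 UMIs and 2127 genes. T or NK names in LGG came to 95.5% (first SingleR), 98.9% (merged) and 100% (second SingleR, scANVI and both VHove labels). Without the top 5% of cells by UMIs, doublet calls in LGG were 2.38% and T or NK names 91.3% (first SingleR), 99.2% (scANVI) and 100% (second VHove). Without doublet calls the second VHove label gave 100%. The remaining settings redefine members or denominator. With the CD8 name of the merged label, the shares in LGG and HGG were 5.27% and 0.780% of all cells, 39.3% and 19.9% of lymphoid cells and 47.9% and 26.7% of T cell classes, with cells of other classes added to the denominators. Without microglia in the denominator the shares were 5.86% and 0.677%. With a score above 0.1 in place of the phase, 14.97% of LGG and 8.33% of HGG CD8 T cells were counted. The T cell class denominator and the next 3 settings were chosen after the data were seen. With both CD8 names the LGG shares were 1.93%, 14.8% and 19.3% of all, lymphoid and T cell class cells, and the HGG share of T cell classes, 9.35%, had an interval that overlapped that of LGG. With singlets that all labels call T or NK the LGG shares were 2.27%, 17.6% and 23.2%, of denominators left unfiltered. Counting all of cluster 36 gave 2.37% and 0.512% of all cells (ratio 0.216), 18.4% and 13.2% of lymphoid cells (0.719) and 24.2% and 19.3% of T cell classes (0.795). The 12 HGG cells limit every HGG value, as the widths of its intervals show.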

Other observations

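The deposited embeddings, which place cells by similarity, put CD8 T cells among lymphocytes. Of the 15 nearest cells of each CD8 T cell, 98.3% in UMAP, 98.8% in tSNE and 76.3% in PHATE were of a T or NK class, which make up 5.49% of all cells. Every CD8 T cell had at least 1 such neighbour in each embedding. CD8 T cells themselves were 45.4% of the neighbours in UMAP, 60.9% in tSNE and 40.2% in PHATE. T cells without a finer name were 47.0%, 28.3% and 22.1%. In PHATE, 18.4% of the neighbours were of the Int Mo/Mac class. Whether the embeddings share their input with the clusters or names is not stated, so these values describe the class and do not check its name.

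Across the 147 LGG cells, which share 1 library, the S and G2M scores had a Spearman correlation of 0.28, UMIs and the S score of 0.07, and UMIs and the G2M score of -0.08.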
